A study of Drosophila melanogaster with 2 samples.

Results

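The miR-92 and miR-310 miRNAs of Drosophila melanogaster form a seed family: miRNAs whose mature 3' arms carry a common seed, the short stretch near the 5' end that pairs with target messages. The hairpins were chosen by name, with no threshold on their read counts, as mir-92a, mir-92b, mir-310, mir-311, mir-312 and mir-313. All 6 were listed in both libraries of the study, among 174 hairpins in all. Small RNA had been sequenced from the central nervous system (CNS) of the isogenic strain w[1118] Iso31 at 2 stages. A single library stood for each stage, made from the tissue of about 100 pooled animals, males and females in about equal number. The adult group was brain with antennal lobes, taken 3 to 5 days after eclosion. The larval group was ventral ganglion with optic lobes of wandering larvae in the third instar, with the eye imaginal discs removed. Flies of both groups were kept at 24 C, and both libraries started from 1 µg of total RNA. Stage and dissection changed together and cannot be told apart, and in such bulk tissue fewer cells of a type and less RNA per cell cannot be told apart either.

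A miRNA is cut from a hairpin whose stem gives a 5' and a 3' mature arm, of which usually a single arm is loaded into Argonaute and the other is lost. The fly family is related by its seed to the vertebrate miR-25 and miR-92 miRNAs. In flies miR-92a and miR-92b are known from larval neuroblasts, the stem cells of the CNS, where they are made together with the host gene jigr1 and restrain its message. miR-92a is also known for its effect on leg trichomes through the gene shavenoid. The miR-310 cluster is a young, quickly evolving group known from the ovary, from Hedgehog signalling in the response to diet, and from the larval neuromuscular junction, where it limits the kinesin Khc-73.

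The 6 hairpins lie at 2 places in the genome (assembly BDGP6). mir-92a (FBgn0262411) lies on 3R from 25646506 to 25646600 on the plus strand, in an intron of 6 of the 8 annotated jigr1 transcripts. mir-92b (FBgn0262388) follows 4797 bases downstream, on 3R from 25651398 to 25651497. It overlaps the 3' UTR exon of a single jigr1 transcript and also an exon of the long noncoding RNA CR45917 (25650572 to 25651557), whose synonym in RefSeq is pri-mir-92b. The miR-310 cluster lies on the minus strand of 2R, within 509 bases and with no overlapping host gene. Its hairpins are mir-310 (FBgn0262436, 20583752 to 20583840), mir-311 (FBgn0262402, 20583877 to 20583960), mir-312 (FBgn0262450, 20584056 to 20584121) and mir-313 (FBgn0262441, 20584190 to 20584260). The annotated 3' mature form is 22 bases long in all 6 hairpins. The 5' form is 22 bases long in mir-92a and mir-313 and 23 in the other hairpins, and 14 to 18 bases separate the arms. The nearest other named gene of the cluster, mir-2498, begins 448 bases past mir-313 and was not listed in the count tables.

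The adult library held 1665159 hairpin reads and the larval library 822500, so 1 read stood for 0.601 RPM (reads per 1000000 hairpin reads) in the adult library, against 1.22 RPM in the larval library. Where no read was counted, a bound of 3 reads was set, which is 1.80 RPM in the adult library, against 3.65 RPM in the larval library. The exact 95% interval of an empty count reaches further, to 2.22 RPM in the adult and 4.48 RPM in the larval library. All intervals are 95% intervals and cover counting error only. They say nothing of the spread between animals, dissections or libraries, and since the kit has no molecular identifiers, PCR copies of a molecule were counted as separate reads. With 1 library per stage no p-value was computed. Neuronal marker miRNAs were present at both stages: miR-124, miR-137, miR-932 and miR-1000 summed to 12950 RPM in the adult brain and 7776 RPM in the larval CNS. Markers of tissues next to the CNS were mostly higher in the adult library. The muscle miRNAs miR-1 and miR-133 summed to 13143 RPM in the adult library, against 565 RPM in the larval library. Nearly all of this was miR-133, while miR-1 had 141 RPM and 47.4 RPM. The eye miRNA miR-210 had 17586 RPM and 99.7 RPM. The 3 listed of 5 fat body markers summed to 24466 RPM and 312 RPM, nearly all from miR-277. The others listed, miR-960 and miR-961, had 2 and 3 adult reads and 0 larval reads, so the sum is in effect miR-277 alone. The part of these tissues in the results below was not tested.

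The family was plentiful among larval miRNA reads and a trace among adult ones. It gave 358 adult and 30013 larval reads. These were 0.0215% of adult reads (0.0193 to 0.0238) and 3.65% of larval reads (3.61 to 3.69). The summed level was 170-fold lower in the adult library (153 to 189), a log2 ratio of adult over larval of -7.41. The 2 loci parted in size. The miR-92 pair was 178-fold lower in the adult library (160 to 199), with 340 adult and 29968 larval reads. The miR-310 cluster was 5.06-fold lower (2.87 to 9.29), with 18 adult and 45 larval reads, and the intervals of these ratios did not overlap. Relative to the pair, the cluster was therefore represented 35.2 times as strongly in the adult as in the larval library, by the odds ratio of the reads (19.0 to 62.8).

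**Figure D1:**
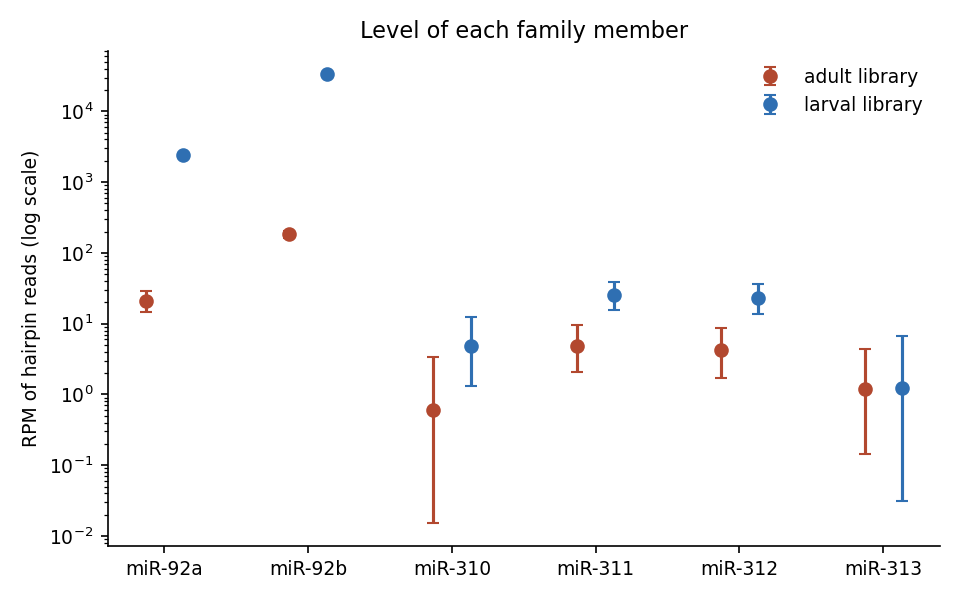
Level of each of the 6 family members in RPM of hairpin reads (log axis), adult library left and larval library right of each tick. Points are the 1 library per stage and bars are exact Poisson 95% intervals of the count. miR-92a stood at 21.0 and miR-92b at 183 RPM in the adult library, against 2382 and 34053 RPM in the larval library. Each single member of the miR-310 cluster stayed under 30 RPM in both.

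miR-92b carried most of the family. It had 305 reads or 183 RPM in the adult library (163 to 205) and 28009 reads or 34053 RPM in the larval library (33656 to 34455). It was the 70th most abundant hairpin of the adult and the 7th of the larval library. In the adult library it stood between miR-2535b with 319 and miR-193 with 281 reads, and in the larval library between miR-317 with 29168 and miR-10 with 25492 reads. At the larval level the adult library would have held 56704.5 reads of it. It was 186-fold lower in the adult library (166 to 209), and its log2 ratio of -7.54 was the lowest of all 114 compared hairpins. These are the hairpins that passed a floor of 20 reads over both libraries and 10 RPM in either. miR-iab-4 was 140-fold lower on 2 adult reads, with an interval of 37.9 to 1165. That interval holds the folds of miR-92b and miR-92a, so the place of miR-iab-4 beside them is not resolved.

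miR-92a had 35 reads or 21.0 RPM in the adult library (14.6 to 29.2) and 1959 reads or 2382 RPM in the larval library (2277 to 2490). It ranked 99th in the adult and 30th in the larval library, next to miR-318 with 38 and miR-982 with 33 adult reads, and to miR-998 with 1968 and miR-2a-2 with 1725 larval reads. It was 113-fold lower in the adult library (81.2 to 163), at a log2 ratio of -6.80, behind only miR-92b and miR-iab-4 among the 114. With mature, exact or unique reads only, miR-92a ranked 2 from the lowest in place of 3. At the larval level the adult library would have held 3966 reads of miR-92a.

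The miR-310 cluster was near the limit of detection in both libraries. miR-311 had 8 adult reads (4.80 RPM, 2.07 to 9.47) and 21 larval reads (25.5 RPM, 15.8 to 39.0), and was 5.31-fold lower in the adult library (2.26 to 13.9). miR-312 had 7 adult reads (interval 1.69 to 8.66 RPM) and 19 larval reads (23.1 RPM, 13.9 to 36.1), and was 5.50-fold lower (2.21 to 15.5). At these counts the levels and the ratios of miR-311 and miR-312 could not be told apart. miR-310 had 1 adult and 4 larval reads, and miR-313 had 2 adult reads and 1 larval read. For neither was a difference detectable at this depth, with ratio intervals of adult over larval from 0.00251 to 1.25 for miR-310 and from 0.0514 to 58.3 for miR-313.

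A hairpin was called when its ratio was at least 2 in either direction and the exact interval of the ratio excluded 1. By this rule 40.4% of the 114 compared hairpins were called higher for the adult and 24.6% for the larval stage. Of these calls 62.2% pointed to the adult library, and 49.4% did when 14 hairpins, those among the 10 most abundant in either library, were left out of both library totals. miR-92b was among those 14, and its own reads were still counted. Of the 6 members, 4 passed the floor, and these 4 were all higher in the larval library: miR-92a, miR-92b, miR-311 and miR-312. miR-311 and miR-312 passed the floor on level through the larval library alone, so their count adds little, and miR-310 and miR-313 were under it. The median log2 ratio was 0.47 over all compared hairpins. Over the 4 compared members it was -4.60, which lies between the miR-92 pair and the miR-310 cluster and near no member. miR-311 and miR-312 entered this median through that same floor, so it adds little as well. In the authors' deposited table, whose Z-test on reads also compares these libraries and not the stages, the Bonferroni-corrected p was listed as 0 for miR-92a and miR-92b, as 0.0292 for miR-311, as 0.0520 for miR-312 and as 1 for the other members.

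**Figure D2:**
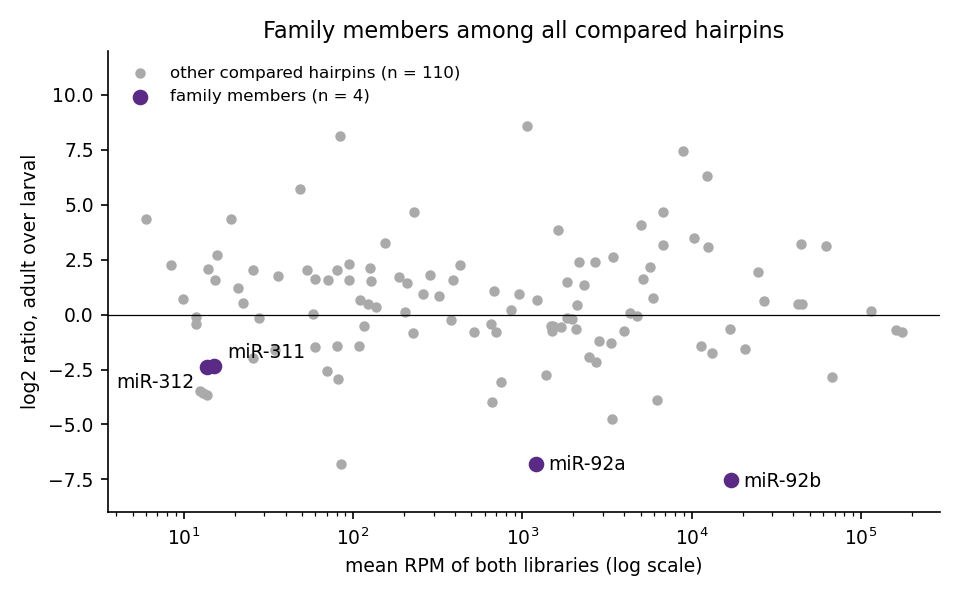
Log2 ratio of adult over larval RPM against the mean RPM of both libraries (log axis) for the 114 compared hairpins, each point 1 hairpin. The 4 compared family members are marked. miR-92b at -7.54 is the lowest point, miR-92a at -6.80 lies beside a low-count hairpin, miR-iab-4, and miR-311 and miR-312 lie at -2.36 and -2.40.

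The order of members was alike at the top and unresolved at the bottom. In the adult library miR-92b exceeded miR-92a 8.71-fold (6.13 to 12.7) and miR-92a exceeded miR-311 4.38-fold (1.99 to 10.9), and below that the order of miR-311, miR-312, miR-313 and miR-310 rested on 8, 7, 2 and 1 reads, with no neighbours apart beyond counting error. In the larval library miR-92b exceeded miR-92a 14.3-fold (13.7 to 15.0), miR-92a exceeded miR-311 93.3-fold (60.9 to 151), and miR-312 exceeded miR-310 4.75-fold (1.58 to 19.2). miR-311 and miR-312 did not differ beyond counting error there, nor did miR-310 and miR-313.

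The make-up of the family followed from these levels. miR-92b was 85.2% of family reads in the adult library (81.1 to 88.7) and 93.3% in the larval library (93.0 to 93.6). miR-92a was 9.78% in the adult (6.90 to 13.3) and 6.53% in the larval library (6.25 to 6.81). The miR-310 cluster was 5.03% in the adult library (3.01 to 7.83) and 0.150% in the larval library (0.109 to 0.201). Within the cluster miR-311 and miR-312 led in both: miR-311 gave 44.4% of adult cluster reads (21.5 to 69.2) and 46.7% of larval ones (31.7 to 62.1), and miR-312 gave 38.9% (17.3 to 64.3) and 42.2% (27.7 to 57.8). The family as a whole was thus almost all miR-92 at both stages.

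**Figure D3:**
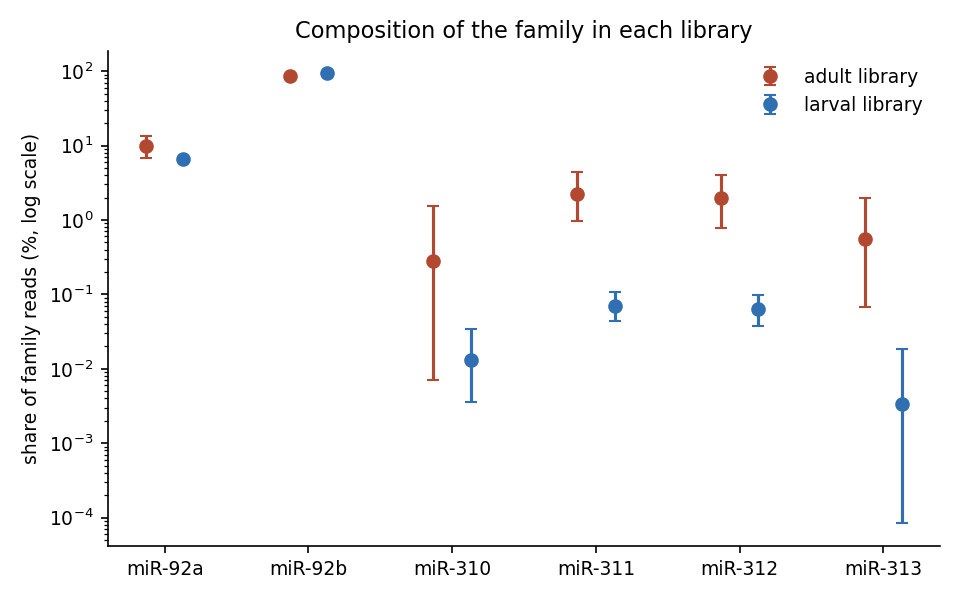
Share of each member among all family reads in percent (log axis), adult library left and larval library right of each tick. Bars are exact binomial 95% intervals over 358 adult and 30013 larval reads. miR-92b holds 85.2% of adult and 93.3% of larval family reads, and miR-311 and miR-312 lie higher in the adult library.

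The arms of miR-92a did not change alike. Its 3' arm, the main mature form, had 25 adult reads (15.0 RPM, 9.72 to 22.2) and 1927 larval reads (2343 RPM, 2239 to 2450), and was 156-fold lower in the adult library (105 to 242). Its 5' arm had 10 reads in each library, which is 6.01 RPM in the adult and 12.2 RPM in the larval CNS. The 5' ratio of adult over larval was 0.494 (0.185 to 1.32), an interval that holds 1. The 5' share of mature reads of miR-92a was therefore 28.6% in the adult library (14.6 to 46.3) and 0.516% in the larval library (0.248 to 0.947). The odds of a 5' against a 3' read were 75.8 times as high in the adult library (25.9 to 224). Exact reads, those that match the annotated form, gave miR-92a a 5' share of 30.4% in the adult library (13.2 to 52.9) and of 0.636% in the larval library (0.291 to 1.20).

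Shares were compared for hairpins that had 20 or more mature reads at both stages, and a difference was called for a move of 10 percentage points or more with intervals that did not overlap. The 5' share was called higher in the adult library in 8.14% of the 86 hairpins that met this, and lower in 11.6%. miR-92a was among those with a higher adult 5' share, and its move of 28.1 points was the fourth largest upward one. Those above it were miR-305, miR-125 and miR-100. The adult share of miR-92a rested on 35 mature reads, fewer than the adult counts of these 3, the smallest of which was 336 for miR-100.

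miR-92b kept to its 3' arm at both stages. The 3' arm had 303 adult reads (182 RPM) and 27869 larval reads (33883 RPM), 186-fold lower in the adult library (166 to 209). The 5' arm had 1 adult and 10 larval reads, or 0.601 and 12.2 RPM, and a ratio interval of adult over larval from 0.00114 to 0.347. The 5' share was 0.329% in the adult library (0.00833 to 1.82) and 0.0359% in the larval library (0.0172 to 0.0660), and was not called different. In the larval library the 5' arms of miR-92a and miR-92b thus had the same count of 10 reads, although their 3' arms differed 14.5-fold (13.8 to 15.2). In the miR-310 cluster every larval read, 45 of 45, came from the 3' arm, and in the adult library 17 of 18 did, the other being a 5' read of miR-313. Over the family 3' reads made up 96.6% of adult mature reads (94.2 to 98.3) and 99.9% of larval ones.

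**Figure D4:**
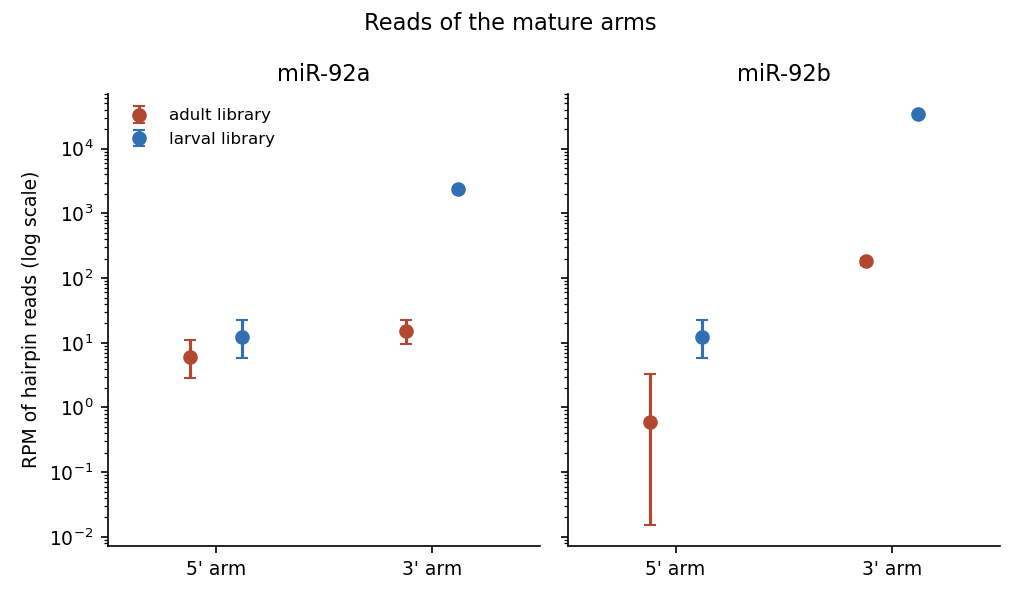
Reads of the 5' and 3' mature arms of miR-92a (left panel) and miR-92b (right panel) in RPM of hairpin reads (log axis), adult library left and larval library right. Bars are exact Poisson 95% intervals of the count. The 5' arm of miR-92a has 6.01 RPM in the adult library, against 12.2 RPM in the larval library with overlapping intervals, while its 3' arm has 15.0 and 2343 RPM.

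With the 3' arm alone the members of the miR-92 pair had closer ratios. miR-92b exceeded miR-92a 12.1-fold in the adult library (8.05 to 19.0) and 14.5-fold in the larval library by 3' reads. The odds of a miR-92a against a miR-92b read were 1.19 times as high in the adult library for 3' reads (0.758 to 1.80), an interval that holds 1, against 1.64 times for all reads (1.12 to 2.34). For exact 3' reads they were 1.11 times as high (0.620 to 1.85). By 3' reads a difference between the pair in the size of the stage ratio was not detectable at this depth.

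Every mature read of the family fitted a single hairpin. The deposited unique counts equalled the mature counts in both arms of all 6 members, 357 of 357 adult and 29861 of 29861 larval reads. Over all hairpins 1.48% of adult and 1.60% of larval mature reads were shared between hairpins, and 15 hairpins in each library had such reads. No mature read of a member was thus counted in another hairpin as well, although the members share a seed.

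Exact reads are given beside variant reads, those that the table puts in the same arm without such a match. On the 3' arm of miR-92b 213 of 303 adult reads were exact, 70.3% (64.8 to 75.4), and 20743 of 27869 larval reads, 74.4% (73.9 to 74.9). On the 3' arm of miR-92a 16 of 25 adult reads were exact, 64.0% (42.5 to 82.0), and 1407 of 1927 larval reads, 73.0% (71.0 to 75.0). In both the intervals of the libraries overlapped. The exact share of 3' reads was called higher in the adult library in 8.06% and lower in 16.1% of the 62 hairpins compared, and neither miR-92a nor miR-92b was among them. Its median over these 62 was 68.0% in the adult library, against 73.7% in the larval library, so both members stood near the middle.

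For miR-92b and for miR-92a the ratios of exact and variant 3' reads had overlapping intervals. For miR-92b the exact 3' reads were 197-fold lower in the adult library (172 to 227) and the variant ones 160-fold (130 to 200). For miR-92a the exact 3' reads were 178-fold lower (109 to 312) and the variant ones 117-fold (61.1 to 257). The odds of an exact against a variant 3' read were 0.813 times as high in the adult library for miR-92b (0.632 to 1.05) and 0.657 times for miR-92a (0.271 to 1.70), and both intervals hold 1. In the miR-310 cluster exact reads were 14 of 18 in the adult library, 77.8% (52.4 to 93.6), and 39 of 45 in the larval library, 86.7% (73.2 to 94.9). miR-312 had 7 of 7 exact adult and 18 of 19 exact larval reads, and miR-311 had 6 of 8 and 17 of 21.

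**Figure D5:**
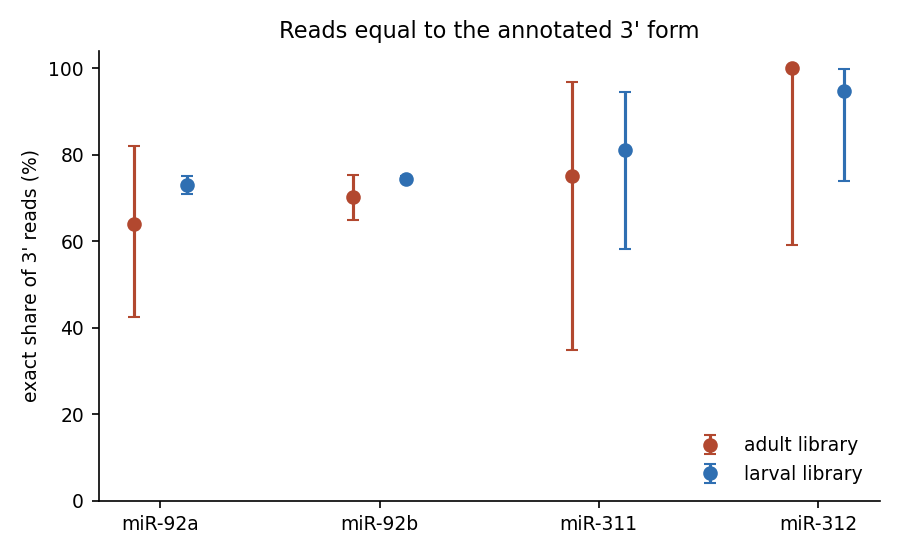
Percent of 3' reads equal to the annotated mature form for the 4 compared members, adult library left and larval library right of each tick. Bars are exact binomial 95% intervals, and the points rest on 25, 303, 8 and 7 adult and 1927, 27869, 21 and 19 larval reads. miR-92b stands at 70.3% in the adult library, against 74.4% in the larval library, and the intervals of the libraries overlap for every member shown.

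Reads outside both mature arms made up at most 1.12% of the reads of any member in either library. miR-92b had 1 such read of 305 in the adult library, 0.328% (0.00830 to 1.81), and 130 of 28009 in the larval library, 0.464% (0.388 to 0.551). miR-92a had 0 of 35 in the adult library, where the bound set was 3 reads, and 22 of 1959 in the larval library, 1.12% (0.705 to 1.70). The exact interval of the fold by which they were lower in the adult library began at 11.1. The miR-310 cluster had none in either library. Pooled over all hairpins such reads were 4.06% in the adult library, against 2.37% in the larval library. The median over the 89 hairpins with 20 or more reads at both stages was 1.37% in the adult library, against 0.783% in the larval library. The larval share of miR-92a lay above this median, and the other shares of miR-92a and miR-92b lay below it.

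The log2 ratios of miR-92a and miR-92b themselves differed by 0.73. Outside the family, the hairpins with log2 ratios nearest to theirs were the same 5 for each. For miR-92b, the absolute difference was 0.73 for miR-iab-4, a miRNA of the bithorax complex, 2.77 for miR-275, 3.55 for miR-282, and 3.65 for miR-9c, with miR-6-1 next. For miR-92a it was 0.01 for miR-iab-4 and at least 2.04 for the others. miR-iab-4 had 2 adult and 138 larval reads and miR-275 had 401 and 5397. Since miR-92b had the lowest ratio of all, every one of these lay above it. The adult read count was 1.09% of the larval one for miR-92b, 1.45% for miR-iab-4 and 1.79% for miR-92a, the lowest 3 of the compared hairpins, and miR-275 followed at 7.43%. The libraries carried different indexes for sequencing together, and whether any adult reads of these hairpins came from the larval library was not tested.

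On a list of 8 miRNAs tied to progenitors and growth, 0 were called higher at the adult stage and 5 at the larval stage. Over all compared hairpins these calls were 40.4% and 24.6%. The median log2 ratio of the list was -1.70, against 0.47 over all compared hairpins. This list and those below were chosen with earlier results of these data known, so their counts are not independent of the data. miR-9c was 14.7-fold (13.9 to 15.6) and miR-9b 8.42-fold (7.35 to 9.67) lower in the adult library. miR-9a, a brake on the number of sensory organ precursors, was lower by 4.45-fold and miR-306 by 3.83-fold. miR-79, with 53 adult and 72 larval reads, was 2.75-fold lower. bantam, a promoter of tissue growth, miR-8 and miR-7 met neither call, at log2 ratios of 0.47, 0.63 and 0.21. With the smaller total bantam and miR-7 turned to -0.05 and -0.31. Apart from miR-iab-4, miR-92b and miR-92a had the lowest ratios of all compared hairpins, so every log2 ratio of this list had to lie above theirs. The closest was miR-9c at -3.88. miR-9b, miR-9c, miR-79 and miR-306 share a cluster and are no independent points.

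Of 8 neuronal miRNAs, 4 were called higher at the adult stage and miR-315 alone at the larval stage, next to the same 40.4% and 24.6%, with a median log2 ratio of 1.09 against 0.47. The adult count is thus near the share among all compared hairpins. With the smaller total the calls were 3 adult and 3 larval. With mature or unique reads only they were 4 adult and 2 larval, and with exact reads only 5 adult and 3 larval. miR-124, used here as a neuronal marker, had 1603 RPM in the adult library, against 2564 RPM in the larval library. miR-92b stood below miR-124 in the adult library and above it in the larval library.

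On a list for ovary and germline, the hairpins outside the miR-310 cluster were also scarce. The list holds the 4 cluster members, which are also the members described above, with miR-989, miR-318, miR-994 and miR-309. miR-309 is not among the ovary markers used here and had 0 adult reads and 1 larval read. Of the 8 hairpins of the list 3 passed the floor. miR-318 was higher in the adult library, with 38 adult and 4 larval reads, and miR-311 and miR-312 were higher in the larval library. Each passed the floor on level only through the library where it was higher. miR-989 and miR-994, further markers of the ovary, had 4 and 2 adult reads and were at 0 in the larval library. In sum the ovary markers miR-989, miR-318 and miR-994 gave 26.4 RPM in the adult library, against 4.86 RPM in the larval library, most of it from miR-318 in the adult and all of it in the larval library. The ratio intervals of miR-989 and miR-994 held 1. Of the 8 testis markers 6 were listed, with 24 adult and 3 larval reads in all. The part of gonad tissue in the cluster's reads was not tested.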

How the data were processed

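Small RNA reads of 1 adult and 1 larval CNS library were examined. Per the file headers, the authors trimmed the reads and deposited counts per annotated hairpin, divided by arm, by identity to the annotated form and by unique fit. The authors' deposited table holds RPM values, a signed fold change (a score with no fixed range, positive where the larval library is higher) and Bonferroni p-values of Kal's Z-test. The authors' RPM and those computed here from the counts were the same for the members. Per the submitters' processing notes, CASAVA 1.8 and the build dm3 were used. The sources used here name no aligner, counting program or miRNA release.

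Ratios are adult over larval RPM of hairpin totals, with exact conditional binomial (Clopper-Pearson) intervals; log2 ratios have 0.5 reads added to each count, and shares have Clopper-Pearson intervals. The call rule was tested on simulated counts that held counting error alone. That test says nothing of the spread between animals, dissections or libraries. scipy 1.17.1 was used, with edgeR 4.0.16 and DESeq2 1.42.0 for scaling factors alone. Positions come from Ensembl release 115 (BDGP6) and were not combined with dm3. The members and lists were chosen with earlier results of these data known, so the list counts are not independent of these data. The genes named are the members, the 5 nearest hairpins by log2 ratio, neighbours in rank of miR-92a and miR-92b, and the hairpins of the lists and markers; miR-305, miR-125 and miR-100 were named after their values were seen. Lists of candidate hairpins were not used here.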

Additional observations from a re-analysis of the deposited data

How the results depend on the processing

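Several settings were varied: another library total, TMM factors, DESeq2 size factors, mature, exact or unique reads only, and 1 read added to each count. In all of them miR-92a, miR-92b, miR-311 and miR-312 kept their direction and call. In these settings miR-310 and miR-313 stayed under the floor, so none of them could give a call. With no filter on low counts all 174 hairpins were compared, and the same 4 members were called higher in the larval library. There miR-310 and miR-313 met neither call, as their ratio intervals with the main total held 1. With the other total the ratio interval of miR-310 was 0.00175 to 0.870, against 0.00251 to 1.25 with the main one. With a floor of 50 reads miR-311 and miR-312 were not compared. When both totals left out the 14 hairpins among the 10 most abundant in either library, miR-92b included, all log2 ratios dropped by 0.52 and the adult share of calls was 49.4% in place of 62.2%; DESeq2 size factors shifted the ratios by -0.15. Family reads, miR-92b included, equalled 0.107% of that adult total and 26.1% of that larval total, which are not shares of it; with the members kept in the total, an alternative chosen after seeing the data, the family was 0.107% of adult and 21.0% of larval reads. The larval share was 3.78% with unique, 3.72% with mature and 3.58% with exact reads. With exact reads the adult 5' share of miR-92b and the adult family share of miR-310 were 0%. Unique reads were 100% of mature and of exact reads for miR-92a and miR-92b; over all hairpin reads they were 98.9% for larval miR-92a, 99.7% for adult and 99.5% for larval miR-92b, since reads outside the arms have no unique count. For that reason unique reads outside the arms were not run. No paired analysis was possible because each stage had 1 library, and no replicate could be left out. The adult 5' share of miR-92a rests on 35 reads, and depth limits every statement on miR-310 and miR-313.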
